A study of Mus musculus with 4 samples.

Results

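Fasted livers of YAP-KO and wildtype male mice were compared before any acetaminophen was given. Of the genes 4-fold or more different, 38 were higher in YAP-KO and 6 lower. The higher ones included the metallothionein genes Mt1 and Mt2, the acute phase genes Saa1 and Saa2, the chemokine gene Cxcl1 and the interleukin 1 receptor gene Il1r1. Dmbt1, a scavenger receptor gene, was 17.8-fold lower. Of 16 measured enzymes of cholesterol synthesis 10 were 1.5-fold or more higher, as were 10 of 28 genes of the unfolded protein response. Of 36 measured targets of the nuclear receptor PPARA and genes of fatty acid oxidation, 16 were 1.5-fold or more lower. So were 16 of 22 pseudogenes of the major urinary protein family. The comparison used 2 of the 4 arrays of the series, the YAP-KO array at 0 h and the wildtype array at 0 h. Differences are log2 differences, YAP-KO minus wildtype, so that 1 unit is 2-fold, over 18437 of 30702 named genes whose mean over the 4 arrays was at or above 4.322, the 40th percentile. For a gene with several probe sets, the brightest was used.

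The wildtype mice carried a floxed YAP gene (Yap1), and the YAP-KO mice were labelled as knockout. The deleted exons, the Cre driver and the cells that lost the gene are not given in the sources used here, nor are ages or strain. Each array held liver RNA pooled from 3 mice, extracted from 100 mg of tissue. The other arrays of the series held livers of both genotypes taken 24 h after 300 mg/kg acetaminophen, an analgesic whose overdose injures hepatocytes, and their levels are given where they help to place a gene. Each group being 1 array, the spread between mice is unknown and no p-value is given, and genotype cannot be told apart from the particular mice pooled or from their handling.

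YAP is a transcriptional coactivator that is held inactive in the cytoplasm by the kinases of the Hippo pathway. In the nucleus it binds DNA through TEAD factors. In liver it is best known for setting organ size and for the state of biliary and progenitor cells, while in mature hepatocytes its level is low.

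Yap1 itself read 7.54 in wildtype and 6.31 in YAP-KO before acetaminophen, against 8.24 and 6.01 after it. Both YAP-KO arrays thus lay below both wildtype arrays, and the difference at 0 h was -1.23, or 2.35-fold. The value rests on 1 probe set, and whether it lies in the deleted exons is not known here, so its level in YAP-KO is no measure of how much of the gene was left intact. In whole liver, fewer cells that hold a transcript and less of it per cell cannot be told apart. The 10 nearest named protein-coding genes on the chromosome, 5 on each side of Yap1, differed by -0.25 to 0.13, with Tmem123 lowest and Trpc6 highest. Birc3 and Birc2, inhibitor of apoptosis genes beside Yap1, read 6.86 and 6.95, and 7.90 and 7.82.

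The other genes of the Hippo pathway were close between the genotypes. Of 18 measured members of the Hippo list, Yap1 was lower by 1.5-fold or more and Sav1, the scaffold of the Hippo kinases, was higher, at 8.56 in wildtype and 9.22 in YAP-KO. Of all genes, 3.44% were 1.5-fold or more higher in YAP-KO and 4.83% lower. Wwtr1, which encodes the paralog TAZ, read 5.75 and 5.82. The TEAD gene Tead1 read 6.12 and 6.68. Among 26 measured YAP/TAZ target genes, 0 were 1.5-fold higher and 1 was lower, with a median of 0.03. That 1 was the matricellular protein gene Ccn1, at 8.39 in wildtype and 7.44 in YAP-KO, while Ccn2 read 5.73 and 5.79.

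A total of 186 genes were 2-fold or more higher in YAP-KO at 0 h (1.01% of the genes measured) and 162 were lower (0.879%). At 4-fold, 38 were higher and 6 lower. The central 95% of all differences ran from -0.74 to 0.68, and the median was -0.03. Genes with mean levels of 4.322 to 5 had a central range of -0.66 to 0.56, and those of 12 to 14 had one of -1.10 to 0.81. Genes were ranked with predicted genes, pseudogenes, microRNA genes and some other classes left out, although the plot shows them. In this ranking the 15 highest differences ran from Mt2 to Tacc2, and the lowest ran from Dmbt1 to the tied genes Sry and Tmie (-1.36). Some genes left out of it lay lower than these last 2, such as major urinary protein pseudogenes, which reached -2.04.

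**Figure D1:**
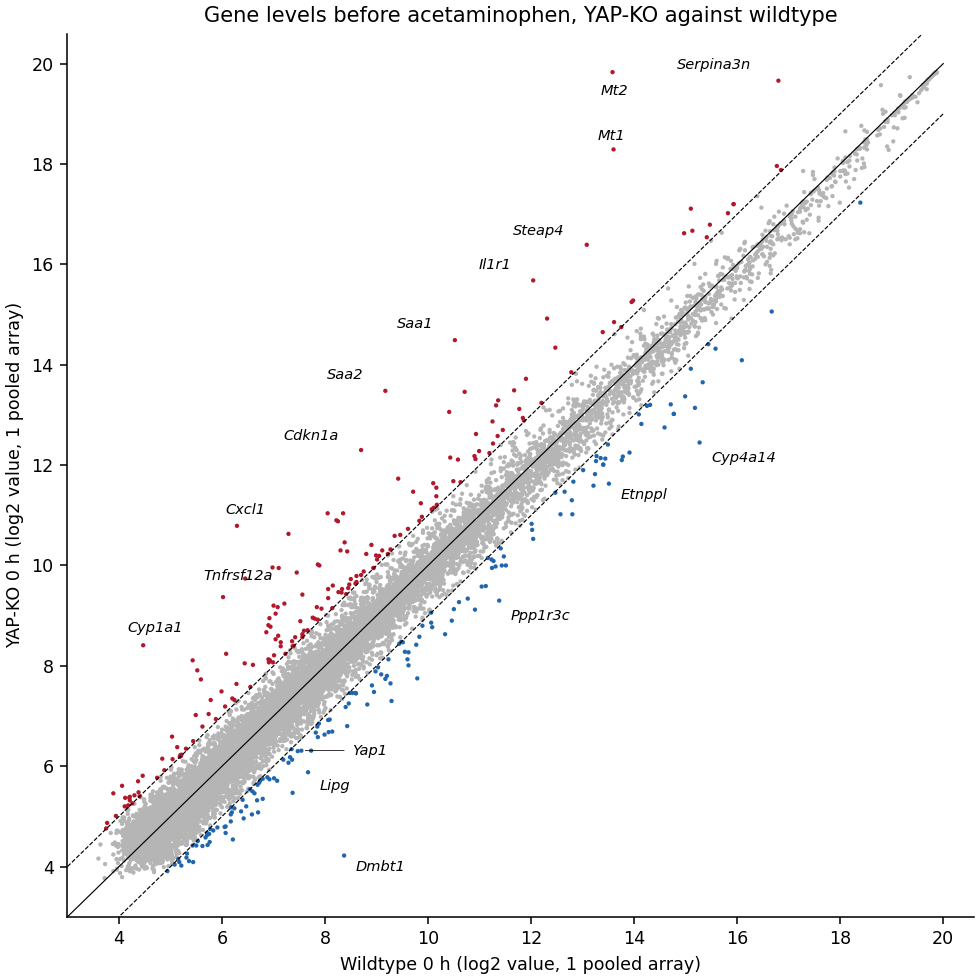
Levels of 18437 genes on the wildtype array at 0 h (horizontal axis, log2 value) and the YAP-KO array at 0 h (vertical axis, log2 value). Each point is 1 gene, the solid line marks equal levels and the dashed lines 2-fold; the 186 genes 2-fold or more higher in YAP-KO are red and the 162 lower are blue. Mt2 lies at the highest value of the YAP-KO array, 19.83, which is a ceiling.

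The balance of higher and lower genes differed between classes of transcript. Protein-coding genes had a median difference of 0.00, with 418 of 12161 higher by 1.5-fold and 313 lower. At 2-fold, 130 protein-coding genes were higher and 46 lower. The lower side was made up mainly of other classes, which held 578 of the 891 genes lower by 1.5-fold and 116 of the 162 lower by 2-fold. Of 651 genes annotated as small nuclear RNA, components of the splicing machinery and their many copies, 133 were lower and 21 higher, a share of 20.4% against 3.23%. Of 507 microRNA genes 91 were lower and 35 higher. Pseudogenes had 223 of 2921 lower and 89 higher. Small nuclear RNA genes were also lower in YAP-KO at 24 h, where 296 were 1.5-fold lower and 23 higher, with medians of -0.21 at 0 h and -0.52 at 24 h. The 24 h arrays are separate from the 0 h arrays. Many of these RNAs are near-identical copies, so the genes of a class are not separate observations.

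**Figure D2:**
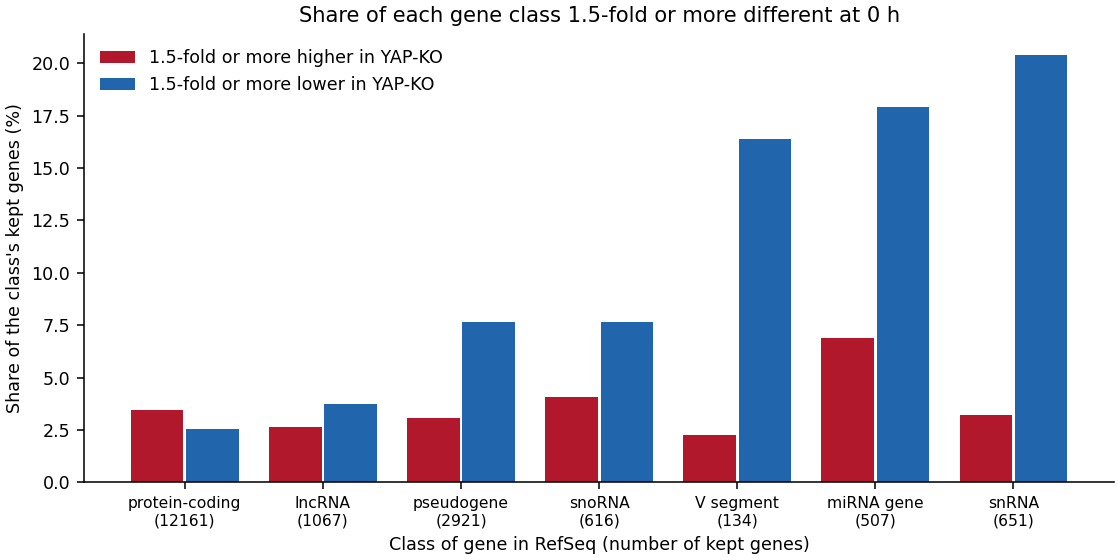
Share of the kept genes in each RefSeq class (vertical axis, percent) that were 1.5-fold or more higher (red) or lower (blue) in YAP-KO at 0 h, with the number of genes in parentheses. Protein-coding genes show 3.44% higher and 2.57% lower, while small nuclear RNA genes show 3.23% higher and 20.4% lower.

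Metallothioneins, small cysteine-rich proteins that bind zinc and copper and whose genes respond to metals, glucocorticoids and cytokines, showed the highest differences of all. Mt1 read 13.60 in wildtype and 18.29 in YAP-KO before acetaminophen, against 18.39 and 18.34 after it. The wildtype array at 0 h was thus the low one of the 4, and the difference at 0 h was 4.69 (25.8-fold). Mt2 read 13.58 and 19.83 before acetaminophen, against 19.93 and 19.88 after it. Its YAP-KO value sat at the array's ceiling, so the difference was at least 6.25, or at least 76.1-fold. Mt3, the form of brain, read 4.86 and 4.85, and Mt4, that of squamous epithelium, 4.12 and 4.48. Slc39a14, which encodes the zinc and iron importer ZIP14, went from 10.93 in wildtype to 12.62 in YAP-KO. Of 11 measured metallothionein and zinc genes 3 were 1.5-fold higher and 0 lower. Mtf1, which encodes the metal-sensing transcription factor, read 7.25 and 7.44. Among 20 genes of zinc transporters, a family picked after its values were seen, Slc30a5 was also 2-fold higher, at 10.16 and 11.55. Of the 20, 2 were 1.5-fold higher, 1 was lower and 6 lay below 0, with a median of 0.17.

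The promoters of both metallothionein genes are shown because the bases before their RefSeq starts hold the motif through which metals act on them. The sequences are the 250 bases before the RefSeq start of each gene (GRCm38.p6), forward strand of chromosome 8, chr8:94172368-94172617 for Mt2 and chr8:94178839-94179088 for Mt1. Capitals mark matches to the core of the metal response element, TGCACNC or TGCGCNC, on either strand.
Mt2: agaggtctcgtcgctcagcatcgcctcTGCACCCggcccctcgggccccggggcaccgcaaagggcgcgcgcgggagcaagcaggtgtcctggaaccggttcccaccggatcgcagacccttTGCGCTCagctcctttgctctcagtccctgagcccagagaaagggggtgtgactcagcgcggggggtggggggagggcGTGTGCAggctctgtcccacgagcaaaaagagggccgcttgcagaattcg
Mt1: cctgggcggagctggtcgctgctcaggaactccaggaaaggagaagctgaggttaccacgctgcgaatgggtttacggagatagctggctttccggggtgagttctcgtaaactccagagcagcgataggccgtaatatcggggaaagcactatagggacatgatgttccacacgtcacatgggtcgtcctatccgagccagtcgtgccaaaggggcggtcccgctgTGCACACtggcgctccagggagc
In these windows Mt2 held 3 matches, 2 on its own strand and 1 on the opposite strand, and Mt1 held 1. Bases after the RefSeq start or further upstream were not searched, so these are not counts for the whole promoter. The core is short: 28.5% of 8758 measured genes with 1 promoter window of this length held it, and 22.1% of the 95 such genes that were 2-fold higher. Measured genes with a match had a median difference of 0.00. A match describes these letters only.

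Of 19 measured iron genes 2 were 1.5-fold higher and 1 lower, with a median of -0.05 and 13 of them below 0. Steap4, which encodes a metalloreductase, read 13.08 in wildtype and 16.39 in YAP-KO before acetaminophen, and Lcn2, which encodes the siderophore-binding lipocalin 2 and also counts as an acute phase gene, read 5.43 and 8.11. Slc40a1, encoding the iron exporter ferroportin, was lower, at 10.80 and 10.03. The remaining 16 of 19 measured iron genes differed by less than 1.5-fold, among them Hamp, the hepcidin gene, at 18.52 and 18.64.

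Acute phase proteins are secreted by hepatocytes under inflammatory cytokines. Of 26 measured genes, 9 were 1.5-fold or more higher in YAP-KO and 0 lower, with a median of 0.21. The 9 include Mt1, Mt2 and Lcn2, which are described elsewhere. Saa2 read 9.17 in wildtype and 13.48 in YAP-KO, a difference of 4.31. Saa1 read 10.52 and 14.49, a difference of 3.97. These 2 serum amyloid A genes are close paralogs whose probes may share signal. Serpina3n, a protease inhibitor gene, read 16.80 and 19.66, and the leucine-rich glycoprotein gene Lrg1 read 11.36 and 13.29. Saa3 (0.72) and Itih3 (0.66) followed. The difference did not extend over the whole list. Orm1 (18.92 and 18.89), Orm2 (13.34 and 13.44), Hp (17.95 and 18.11), Lbp (12.89 and 12.79) and Crp (15.60 and 15.55) were close, and the fibrinogen genes Fga, Fgb and Fgg were at the ceiling of both arrays, where no difference can be read.

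Receptors and signal carriers of the interleukin 6 family, which drive STAT3 in hepatocytes, stood higher as a list. Of 15 measured members 8 were 1.5-fold higher and 0 lower, and the median was 0.78. Another 5 members were under the expression filter, and the median with them was 0.39. The receptor genes Il6ra (10.07 in wildtype and 11.12 in YAP-KO), Osmr (6.91 and 8.07) and Il6st (12.89 and 13.67) were higher, as was Stat3 itself (9.35 and 10.59). So were genes that STAT factors are known to induce. Bcl3 read 6.94 and 8.78, Cish 5.03 and 6.59, Pim1 6.51 and 7.46, and Pim3 7.41 and 8.36, whereas Socs3, the feedback inhibitor, read 4.71 and 5.23. The ligand genes were dim on both arrays. Il6 read 3.92 and 3.97, Osm 4.14 and 3.80, and Lif 4.08 and 4.22, all under the expression filter.

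Interleukin 1 and tumour necrosis factor pathways showed single receptors rather than whole lists. Il1r1, the interleukin 1 receptor gene, read 12.04 in wildtype and 15.68 in YAP-KO before acetaminophen, against 13.64 and 13.63 after it, so the YAP-KO 0 h array was the highest of the 4. Its adaptor Myd88 read 7.40 and 8.04. Tnfrsf12a, the receptor of TWEAK, read 6.02 and 9.37, Tnfrsf1a, a receptor for tumour necrosis factor, read 8.15 and 9.60, and the decoy receptor gene Tnfrsf11b read 5.56 and 6.51. In those lists, 2 of 13 and 3 of 17 measured genes were 1.5-fold higher and 0 lower, with medians of 0.19 and -0.01 (0.00 and 0.23 with the filter at the 60th percentile). The NF-kappaB list had 4 of 19 higher, including Bcl3, Rela (10.75 and 11.60), Cebpd (5.20 and 6.20) and Nfkbib (8.13 and 8.74), and a median of 0.10 (0.21 with the filter at the 60th percentile).

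Cxcl1, which encodes a neutrophil-attracting chemokine, read 6.29 in wildtype and 10.79 in YAP-KO, a 22.6-fold difference. It stood alone among chemokines: of 23 measured, Pf4 (0.62) was the other gene 1.5-fold higher, Ccl19 (-0.73) was lower, and the median was 0.01. Its promoter is shown because it holds the NF-kappaB motif more than once. The stretch runs from 125 to 26 bases before the RefSeq start (chr5:90891120-90891219, GRCm38.p6, forward strand), with matches to GGGNNTTTCC on either strand in capitals.
Cxcl1: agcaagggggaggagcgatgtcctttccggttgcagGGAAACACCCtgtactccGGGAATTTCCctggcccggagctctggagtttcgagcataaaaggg
Among measured genes with 1 window, 1.38% held this motif, as did 4 of the 95 that were 2-fold higher (4.21%) and 0 of the 37 that were 2-fold lower. Over the 121 measured genes with a match, the median difference was -0.01.

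Neutrophil markers are given beside Cxcl1. Of 14 named neutrophil markers 2 were 1.5-fold higher, Lcn2 and S100a8 (0.59), and 0 lower. Neutrophil granule genes were dim on both arrays, with Elane at 3.19 and 3.22, Mpo at 3.78 and 3.73 and Ngp at 3.81 and 3.86. Ly6g read 5.89 and 5.70. The median difference of the 14 was 0.03. The log2 of the summed marker levels was 8.81 in wildtype and 9.47 in YAP-KO. Most of that gap comes from Lcn2 (5.43 and 8.11), which hepatocytes also express. The part of neutrophils in the Cxcl1 and Lcn2 differences was not tested. At 24 h the sums were 12.54 and 12.04.

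Interferon-responsive genes had 8 of 31 higher by 1.5-fold and 0 lower, with a median of 0.28. Igtp, a GTPase gene, read 8.70 and 9.81, Stat2 9.22 and 10.20, Ifit3 6.17 and 7.10, and Irf1 6.62 and 7.37, while Isg15 (4.88 and 5.20) and Cxcl10 (4.19 and 4.35) differed by less. Genes of this list that were 1.5-fold higher also included Ifit3b (1.02), Bst2 (0.71), Irf9 (0.69) and Irgm1 (0.64).

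Cdkn1a, the gene of the cell cycle inhibitor p21, read 8.70 in wildtype and 12.30 in YAP-KO before acetaminophen, against 14.54 and 13.16 after it. The p53 target list, to which it belongs, had 7 of 24 genes 1.5-fold higher and 0 lower, with a median of 0.23. Gadd45g (7.21 and 9.24), Ccng1 (11.35 and 12.58), Plk2 (7.80 and 8.94), Btg2 (8.50 and 9.33), Polk (6.58 and 7.24) and Mdm2 (8.71 and 9.36) were the others. Cell division genes did not go with them. Of 22 measured G1/S genes, 0 were higher and 1, Ccne2 (-0.71), was lower, and of 9 mitotic genes above the filter 0 differed by 1.5-fold.

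Immediate early genes, transcribed within minutes of a stimulus, had 6 of 22 higher and 1 lower, with a median of 0.27 (0.13 without the filter). Myc read 5.49 in wildtype and 7.02 in YAP-KO, Jun 5.44 and 6.50, Egr1 6.13 and 7.08, Jund 6.85 and 7.75, and Klf6 7.45 and 8.30. Btg2 counted here too, and the ERK pathway inhibitor gene Spry4 was lower at 6.92 and 6.24. Ribosome biogenesis factors, whose genes include many that MYC is known to bind, had 8 of 27 higher and 0 lower, with a median of 0.31. Nop58, a core protein of small nucleolar particles, read 9.71 and 11.47, and Ltv1 (8.41 and 9.43), Heatr1 (7.37 and 8.39) and Ddx21 (9.21 and 10.02) were also higher.

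Igfbp1, a growth factor binding protein made by the liver in fasting and stress, read 12.31 in wildtype and 14.92 in YAP-KO. In the growth hormone list 5 of 18 genes were 2-fold higher, Igfbp1, Gadd45g, Cish, Socs2 (5.88 and 6.94) and the epidermal growth factor receptor gene Egfr (16.77 and 17.96). Igfals, the binding partner of circulating IGF1, was lower at 10.61 and 10.01. The list's median was 0.12, and 7 of the 18 genes lay below 0. Gadd45g and Cish also count in lists described above. Socs2 and Cish are feedback genes of the growth hormone receptor as well as of cytokine receptors.

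Endoplasmic reticulum chaperones were higher while genes of the integrated stress response stayed near 0. The unfolded protein response raises folding and degradation factors through XBP1 and ATF6, and a parallel arm acts through PERK and ATF4. Of 28 measured unfolded protein response genes, 10 were 1.5-fold or more higher, 1 was lower and 25 lay above 0, with a median of 0.53. Creld2, a resident chaperone-like protein, read 10.71 in wildtype and 13.46 in YAP-KO. Syvn1, the ubiquitin ligase of endoplasmic reticulum degradation, read 7.56 and 9.42. Xbp1 read 11.67 and 13.49, Dnajb9 13.39 and 14.65, Hyou1 10.92 and 12.12, Hspa5, which encodes BiP, 15.49 and 16.47, and Dnajb11 9.44 and 10.38. Sdf2l1 (0.81), Pdia6 (0.62) and Dnajc3 (0.59) were the other 3. The lower gene was Creb3l3, a liver transcription factor of the reticulum membrane, at 11.32 and 10.40.

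In the integrated stress response list 1 of 29 genes was 1.5-fold higher, the PERK gene Eif2ak3 (8.01 and 8.62), and 0 were lower, with a median of 0.05. Atf4 read 7.12 and 7.42, Ddit3, which encodes CHOP, 7.23 and 7.33, Asns 6.44 and 6.48, and Trib3 4.60 and 4.56. At 24 h, on separate arrays, the unfolded protein response list had 16 of 28 genes 1.5-fold higher in YAP-KO and 0 lower, and the integrated stress response list stood at -0.22, with 3 higher and 10 lower.

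Promoters of chaperone genes are shown because a single motif, the endoplasmic reticulum stress element, is shared by several of the genes that were higher. It is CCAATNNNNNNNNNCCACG, a CCAAT box and a CCACG box 9 bases apart, and capitals mark it in 100-base stretches before the RefSeq starts of Creld2 (chr15:88819479-88819578), Syvn1 (chr19:6046476-6046575) and Hspa5 (chr2:34771984-34772083), all GRCm38.p6, forward strand.
Creld2: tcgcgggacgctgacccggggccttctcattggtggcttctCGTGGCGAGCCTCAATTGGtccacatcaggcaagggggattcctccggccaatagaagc
Syvn1: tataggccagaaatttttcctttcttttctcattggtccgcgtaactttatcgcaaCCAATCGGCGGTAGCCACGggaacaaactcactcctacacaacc
Hspa5: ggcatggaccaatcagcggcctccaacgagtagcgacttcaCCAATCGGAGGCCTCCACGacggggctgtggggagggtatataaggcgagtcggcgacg
In Creld2 the element lies on the opposite strand. Of 22 unfolded protein response genes with 1 window, 9 held the element (40.9%), against 17 of all 8758 measured genes with 1 window (0.194%) and 0 of 22 in the integrated stress response list. Those 17 genes had a median difference of 0.27, 16 of them lay above 0, and 6 were 1.5-fold higher and 0 lower, where 3.28% and 2.67% of all measured genes with a window were. The 17 include the 9 list genes, so they are not a separate observation. The share in the list depends on which genes were put in it, not on their differences. Outside the list, Acacb, an acetyl-CoA carboxylase gene, was the only 1 of the 6, at 7.89 and 8.62. Xlr3a (0.01), Xlr3b (-0.09) and Xlr3c (0.17) were also outside it. Calr (0.07) and Canx (0.09) hold the element too and read close to equal.

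**Figure D3:**
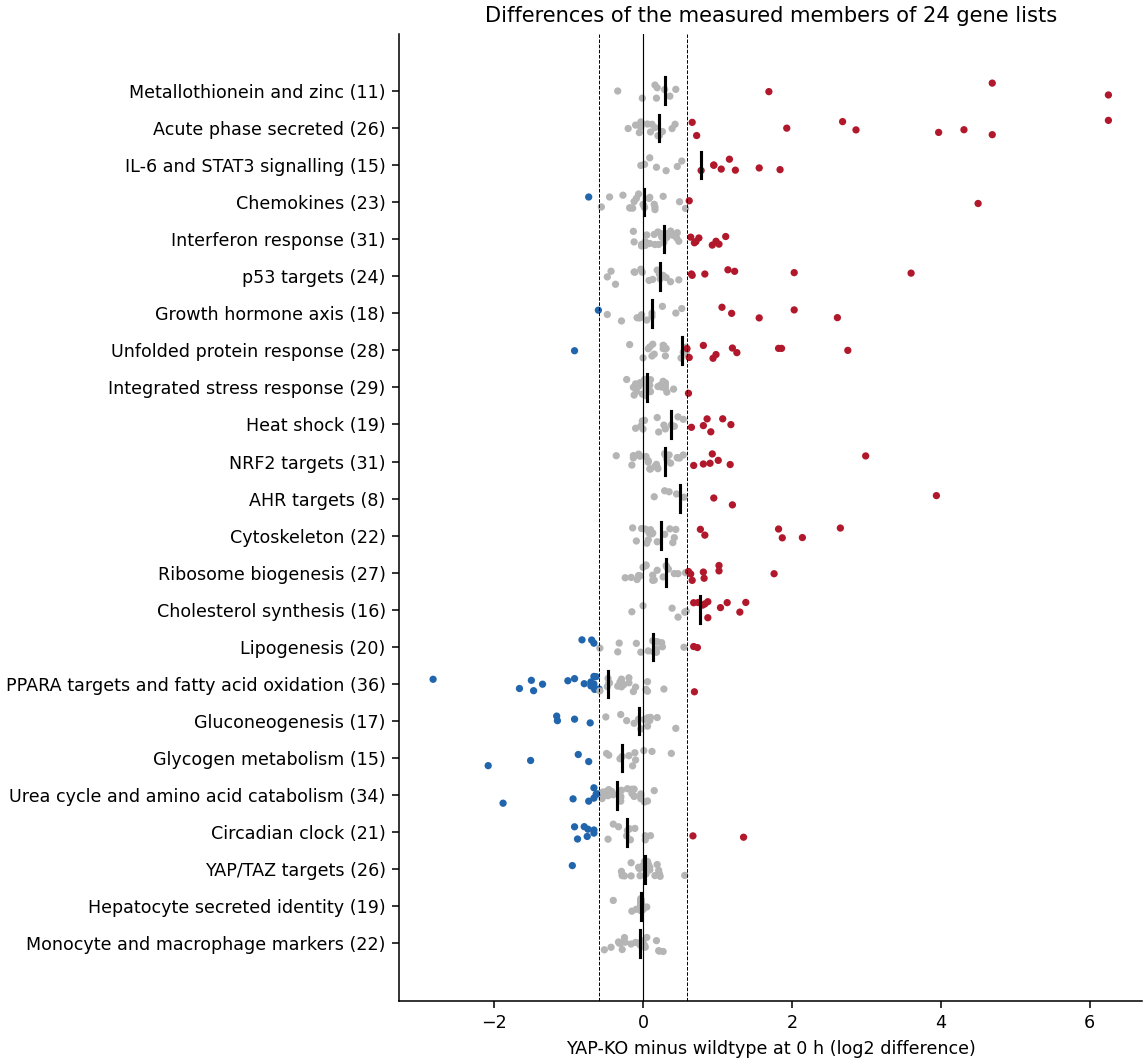
Differences between YAP-KO and wildtype at 0 h (horizontal axis, log2 difference) for the measured members of 24 gene lists, with the number of members in parentheses. Each point is 1 gene, black bars are list medians, and dashed lines mark 1.5-fold, beyond which points are red (higher in YAP-KO) or blue (lower). The medians of the cholesterol synthesis (0.77), IL-6 and STAT3 (0.78) and unfolded protein response (0.53) lists lie to the right, and that of the PPARA list (-0.47) to the left; the point of Mt2 is a lower bound.

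Cytosolic chaperones of the heat shock response had 6 of 19 genes higher and 0 lower, with a median of 0.38. Hspb1 read 6.93 in wildtype and 8.11 in YAP-KO, Hspb8 12.78 and 13.85, the co-chaperone gene Bag3 7.75 and 8.66, Hsp90aa1 14.66 and 15.52, Hsph1 11.65 and 12.46 and Hspa4l 8.53 and 9.18. Proteasome genes differed little: 0 of 29 reached 1.5-fold, with a median of 0.06.

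NRF2 targets, the antioxidant and glutathione genes, had 7 of 31 higher and 0 lower, with a median of 0.29. Srxn1, which encodes sulfiredoxin, read 8.05 in wildtype and 11.04 in YAP-KO. Ugdh (11.26 and 12.43), the heme oxygenase gene Hmox1 (7.39 and 8.40), Gclc, the catalytic subunit of the enzyme that limits glutathione synthesis (15.70 and 16.63), Gstm3 (14.19 and 15.09), Txnrd1 (10.23 and 11.04) and Osgin1 (7.68 and 8.36) were the others. Nqo1, a standard NRF2 readout, read 6.21 and 6.50, and Slc7a11 read 4.26 and 4.20. Gclc and Cyp1a2 (18.10 and 18.65) also belong to the metabolism of acetaminophen. Cyp2e1, which forms its toxic metabolite, was at the ceiling of both arrays, and Gss (8.76 and 9.21), Gsr (11.88 and 12.20) and Cyp3a11 (19.68 and 19.49) differed by less than 1.5-fold.

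Cyp1a1, the classical target of the aryl hydrocarbon receptor, read 4.47 in wildtype and 8.41 in YAP-KO before acetaminophen, against 4.15 and 4.31 after it. The YAP-KO array at 0 h was thus the high one of the 4. Tiparp, a feedback gene of the receptor, read 7.01 and 8.21, and Ahr itself 10.18 and 11.13. All 8 measured genes of this list, which include the receptor gene Ahr itself, lay above 0, with 3 at 1.5-fold or more and a median of 0.50. Another 2 members were under the expression filter, Ahrr (0.25) and Aldh3a1 (-0.07), and the median with them was 0.40. That all measured members lay above 0 thus depends on the filter. Cyp1b1 read 4.45 and 4.60.

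Single tubulin and keratin genes were higher. Tubb2a read 10.41 in wildtype and 13.06 in YAP-KO, Tubb6 5.59 and 7.73, Tubb2b 3.84 and 4.67, and Tubb4b 7.18 and 7.95, while Tubb5 (9.86 and 9.84) and Tuba1c (15.11 and 15.16) were close. Of the keratin pair of hepatocytes, Krt8 read 12.47 and 14.34 and Krt18 read 11.90 and 13.72. Tubb2b is dim, and its wildtype level lay under the filter level of 4.322, which applies to the mean over the 4 arrays. The 4 tubulins and 2 keratins were the 6 of 22 cytoskeleton genes that were 1.5-fold higher, and 0 were lower, with a median of 0.24 (0.13 without the filter). Krt19, the keratin of bile ducts, read 4.56 and 4.31. Over whole families, grouped after their values were seen, 4 of 12 tubulins were 1.5-fold higher with a median of 0.26. Of 15 keratins 2 were higher, 9 lay below 0 and the median was -0.13.

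Among the 15 highest genes, 3 belong to no list described here. Ppl, which encodes the plakin periplakin, read 6.45 in wildtype and 9.74 in YAP-KO, D10Wsu102e 6.98 and 9.96, and Tacc2, a coiled-coil protein gene, 7.10 and 9.95. Picked after their values were seen, the ceramide synthase gene Cers6 (7.45 and 9.86), the bile acid uptake gene Slc10a2 (9.42 and 11.73), the neuregulin gene Nrg4 (7.08 and 9.17) and the choline kinase gene Chka (8.38 and 10.46) were also 4-fold or more higher.

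Cholesterol synthesis was higher along most of the pathway. Of 16 measured enzymes 10 were 1.5-fold or more higher and 0 lower, with a median of 0.77. In pathway order, Hmgcs1, which makes hydroxymethylglutaryl-CoA, read 15.41 in wildtype and 16.54 in YAP-KO. The mevalonate steps followed, with Pmvk at 8.34 and 9.21, Idi1 at 13.98 and 15.28 and Fdps at 12.36 and 13.10. Sqle, which epoxidises squalene, read 9.86 and 11.24, and Lss, which closes the ring, 7.58 and 8.45. Cyp51 (12.20 and 13.24), Msmo1 (8.38 and 9.21), Hsd17b7 (9.90 and 10.70) and Dhcr7 (7.72 and 8.40) of the later steps were higher too. Mvk (0.39), Mvd (0.47), Fdft1 (0.56) and Nsdhl (0.58) lay above 0 without reaching 1.5-fold, Ebp was equal, and Sc5d was at -0.15. The promoter windows of all 11 such genes with 1 window held a CCAAT box, which 36.8% of measured genes did, and 1 of the 11, Hmgcs1, held the sterol element CACCCCAC, which 2.59% did.

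Genes that take up, export or sense sterols went both ways. Abca1, the exporter to high-density lipoprotein, read 12.24 and 13.15 and its receptor gene Scarb1 9.51 and 10.14, while the biliary sterol exporters Abcg5 (11.36 and 10.45) and Abcg8 (11.57 and 10.88) were lower. Srebf2, the regulator of the cholesterol pathway, read 7.40 and 7.93. Lipogenesis genes were split as well, with 2 of 20 higher, Fasn (11.95 and 12.63) and Acacb, and 3 lower, Thrsp (13.07 and 12.25), Gpam (12.01 and 11.32) and Dgat2 (15.78 and 15.12), and a median of 0.14.

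PPARA is the nuclear receptor that turns on fatty acid oxidation in fasting. Of 36 measured targets and oxidation genes 16 were 1.5-fold or more lower, 1 was higher and 31 lay below 0, with a median of -0.47. The microsomal hydroxylase gene Cyp4a14 read 15.27 in wildtype and 12.45 in YAP-KO before acetaminophen, against 19.35 and 16.37 after it. Cyp4a31 (13.76 and 12.10) and Cyp4a32 (14.71 and 13.21) were lower, and all 6 measured genes of the Cyp4a family lay below 0. Acot1, an acyl-CoA thioesterase, read 8.95 and 7.48, Vnn1, a pantetheinase, 9.62 and 8.27, the fatty acid transporter gene Cd36 11.16 and 10.15, and Ppara itself 11.81 and 11.11. Peroxisomal and mitochondrial members showed smaller differences, with Ehhadh at -0.65, Acaa1b at -0.70, Pex11a at -0.66, Slc27a2 at -0.66, Acot4 at -0.60 and Eci2 at -0.59. Cyp4a12a (-0.63), Aldh3a2 (-0.79) and Creb3l3 (-0.92) completed the 16. Pdk4, a kinase that spares glucose, was the 1 gene that was higher, at 7.28 and 7.97. Cpt1a (0.04), Plin2 (0.28), Angptl4 (0.06) and Acot3 (0.06) also lay above 0. The mitochondrial oxidation genes Cpt2 (-0.19), Acadm (-0.48), Acadl (-0.13), Acadvl (-0.19), Hadha (-0.26) and Hadhb (-0.29) were below 0 by less than 1.5-fold.

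Single glycogen and glucose genes were lower. Ppp1r3c and Ppp1r3b encode the subunits that bring protein phosphatase 1 to glycogen and so activate its synthesis. Ppp1r3c read 11.38 in wildtype and 9.30 in YAP-KO before acetaminophen, against 8.04 and 9.97 after it. Ppp1r3b read 12.04 and 10.53 before acetaminophen, against 8.05 and 10.75 after it. The glycogen synthase gene Gys2 (14.55 and 13.82) and Ugp2, which makes UDP-glucose (13.91 and 13.04), were the other 2 of 15 glycogen genes that were 1.5-fold lower, and 0 were higher, with a median of -0.28 (-0.17 after quantile normalization). In gluconeogenesis, 4 of 17 were lower and 0 higher, while 7 lay above 0 and the median was -0.06 (0.00 after quantile normalization). These were G6pc, the glucose-6-phosphatase gene (18.39 and 17.23), Pck1, the gene of the committed step (17.58 and 16.87), the coactivator gene Ppargc1a (8.60 and 7.45) and Creb3l3. The hepatocyte glucose transporter gene Slc2a2 read 15.05 and 14.18.

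Amino acid catabolism was lower over much of its list. Of 34 urea cycle and amino acid genes 7 were 1.5-fold lower, 0 were higher and 31 lay below 0, with a median of -0.35. Etnppl, which degrades phosphoethanolamine, read 13.51 and 11.63, and Kynu of the tryptophan pathway 14.39 and 13.45. Prodh (-0.73), Asl (-0.66), Oat (-0.66), Cth (-0.63) and Bckdha (-0.61) were the others. Ppm1k, the phosphatase that activates branched-chain keto acid oxidation, was outside the list and read 11.12 and 9.59.

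**Figure D4:**
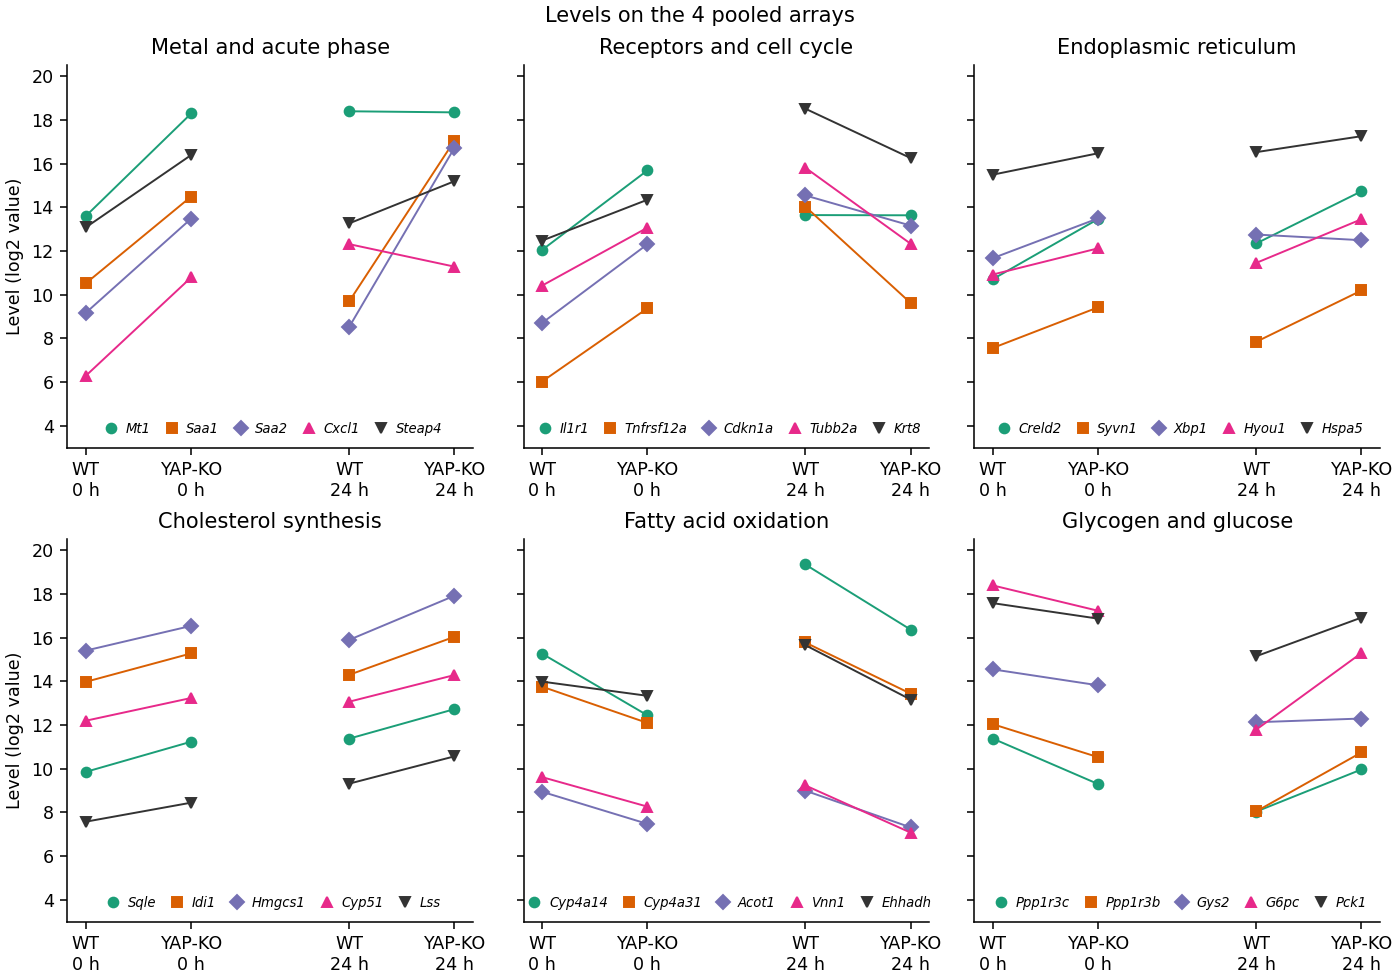
Levels (vertical axis, log2 value) of 30 genes in 6 groups on the 4 pooled arrays, wildtype (WT) and YAP-KO at 0 h and 24 h. Each point is 1 gene on 1 array, and lines join the genotypes at 1 time. The genes were picked from those that differ at 0 h, so the plotted genes of the upper 3 panels and of cholesterol synthesis are higher in YAP-KO there and those of the last 2 panels lower; at 24 h the lines of the 5 plotted glycogen and glucose genes run upward.

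Most measured bile acid genes, CAR and PXR targets and genes of drug conjugation lay below 0. Of 29 bile acid genes 2 were 1.5-fold lower, Amacr (-0.67) and the uptake transporter gene Slco1b2 (-0.65), and 0 were higher, with a median of -0.16. All genes at mean levels of 10 to 12, 12 to 14 and 14 to 20 had medians of -0.05, -0.14 and -0.08. Of all genes, 4.83% were 1.5-fold lower. Among CAR and PXR targets 3 of 20 were lower, Cyp2b10 (7.77 and 6.96), the PXR gene Nr1i2 (9.55 and 8.82) and Cyp2c38 (12.49 and 11.79), and 1 was higher, the heme synthesis gene Alas1 (12.99 and 13.62). Of the 20 CAR and PXR targets 16 lay below 0, with a median of -0.27, and 15% were 1.5-fold lower. Of 27 measured conjugation genes 20 lay below 0 and 2 were 1.5-fold lower, with a median of -0.28. Among P450 families, looked at after the values were seen, all 13 measured Cyp2c genes and all 8 Cyp2d genes lay below 0. Their medians were -0.28 and -0.34.

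Major urinary protein pseudogenes were lower as a family that was picked after its values were seen. Of 22 measured, 16 were 1.5-fold lower, 13 were 2-fold lower and 0 were 1.5-fold higher, with a median of -1.13 and a lowest value of -2.04. Their near-identical copies share probes, so the 22 are not separate observations. The coding genes Mup3 and Mup20 were at the ceiling of both arrays. Mup21 (19.24 and 19.12) and Mup5 (18.47 and 18.33) lay close under it, and Mup6, well below it, read 13.44 and 12.65.

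Clock genes had 7 of 21 lower and 2 higher, with a median of -0.22. Lower were the output and feedback genes Ciart (6.12 in wildtype and 5.20 in YAP-KO), Bhlhe40 (10.32 and 9.44), Hlf (7.39 and 6.60), Cry1 (6.20 and 5.45), Tef (7.38 and 6.64), Usp2 (6.25 and 5.59) and Noct (8.55 and 7.89). Higher were the G protein regulator gene Rgs16 (11.77 and 13.12) and Nfil3 (6.16 and 6.83). The core genes Arntl (8.09 and 7.88), Nr1d1 (10.77 and 10.81) and Per1 (7.39 and 7.22) were closer. The time of day at which the livers were taken is not given in the sources used here.

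Dmbt1, which encodes a scavenger receptor protein secreted by epithelia, had the lowest difference of all. It read 8.37 in wildtype and 4.22 in YAP-KO before acetaminophen, against 3.95 and 4.18 after it, so that the wildtype array at 0 h alone was high. The difference of -4.15 is 17.8-fold. It is a marker of the bile duct and progenitor list, and none of the other 19 named markers differed by 1.5-fold, with Sox9 at 6.52 and 6.73, Epcam at 5.02 and 5.26 and Krt7 at 4.34 and 4.46. Other low genes outside the lists above were Lipg, the endothelial lipase gene (7.67 and 5.88), Fam13a (8.82 and 7.23), the tight junction gene Cldn1 (11.04 and 9.58), the activin subunit gene Inhbe (10.77 and 9.34), the potassium channel gene Kcnk5 (9.17 and 7.74), Tmie (7.07 and 5.71) and the Y chromosome gene Sry (7.99 and 6.63). The other Y chromosome genes Kdm5d (7.75 and 7.92), Uty (9.20 and 9.28) and Eif2s3y (9.38 and 9.41) were close.

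Markers of most other cell types had few members past 1.5-fold. The label of liver was borne out by Alb, Ttr, Apoa1 and Apob, all at the ceiling of both arrays, so their equality there says nothing of their levels. Among secreted hepatocyte genes below the ceiling, F7 was equal at 11.66 and F2 read 16.57 and 16.54. Of 22 named monocyte and macrophage markers 0 differed by 1.5-fold, of 18 lymphocyte markers 0, of 14 Kupffer cell markers 1 (Slc40a1), and of 22 endothelial markers 1, the lymphatic and sinusoidal gene Lyve1 (8.06 and 8.80). The log2 of the summed levels in wildtype and YAP-KO was 12.21 and 12.03 for monocytes and macrophages, 15.04 and 15.28 for Kupffer cells, 13.59 and 13.57 for endothelium and 8.34 and 8.36 for pancreatic acinar genes. Larger gaps were seen for erythroid and platelet genes (12.15 and 11.77), bile duct and progenitor genes (11.36 and 10.99), adipose genes (19.50 and 19.23) and intestine and gallbladder genes (13.29 and 13.60). The bile duct and progenitor sum holds Dmbt1 (8.37 and 4.22), its only member that differed by 1.5-fold. In the intestine and gallbladder list Apoa4, which hepatocytes also express, was higher (11.25 and 12.87), and Fabp2 (12.85 and 12.21) and Lgals4 (6.33 and 5.68) were lower. In the adipose list the brightest member alone read 19.50 and 19.23, the values of the sum. Of its 9 named members 0 differed by 1.5-fold. In the erythroid and platelet list Pf4 was higher (4.66 and 5.28) and the erythroid gene Alas2 read 12.10 and 11.70. Stellate and matrix genes had 3 of 27 higher, Lum (6.55 and 7.58), Tagln (5.54 and 6.31) and Thbs1 (5.06 and 5.82). Their part in the other differences was not tested.

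The YAP-KO and wildtype arrays at 24 h, which are separate from those at 0 h, allow the same genes to be read again. At 24 h, 3.24% of all genes were 2-fold higher in YAP-KO and 5.73% were 2-fold lower. Of the 186 genes higher at 0 h, 31 were 2-fold higher at 24 h and 52 were 2-fold lower (16.7% and 28%), with a median of -0.11. Of the 162 lower at 0 h, 20 were lower at 24 h and 19 higher (12.3% and 11.7%). Over all genes the differences at the 2 times correlated at r = -0.100 and rho = -0.141 across genes, which are not independent replicates.

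The 2 times matched in direction for some lists and not for others. Cholesterol synthesis genes were higher in YAP-KO at both times (medians 0.77 and 1.31) and PPARA genes lower (-0.47 and -0.59). Ribosome biogenesis genes stood at 0.31 at 0 h and -1.10 at 24 h, immediate early genes at 0.27 and -1.35, cytoskeleton genes at 0.24 and -0.80 and NRF2 targets at 0.29 and -0.84. Single genes show the levels behind this. After acetaminophen Tubb2a read 15.81 in wildtype and 12.33 in YAP-KO, and Krt8 18.51 and 16.25. The YAP-KO array at 0 h was the highest of the 4 for 89 of the 186 higher genes and the wildtype array at 24 h for 65, and the wildtype array at 0 h was the lowest for 137. Of the 162 lower genes the wildtype array at 0 h was the highest for 137. Both sets of genes were picked on the 0 h arrays, so these counts follow in part from that choice. Among the higher genes, for example, the wildtype array at 0 h could never be the highest.

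**Figure D5:**
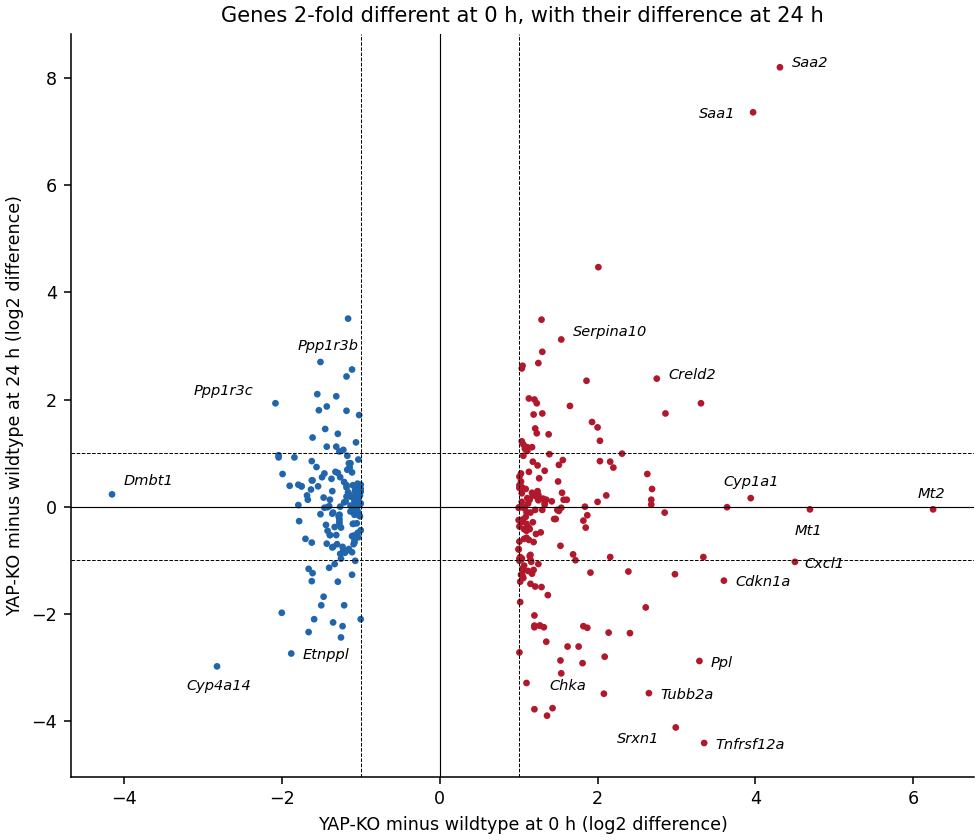
Genes that differed 2-fold or more at 0 h, with the difference between YAP-KO and wildtype at 0 h (horizontal axis, log2 difference) and at 24 h (vertical axis, log2 difference). Each point is 1 gene, red for the 186 higher and blue for the 162 lower in YAP-KO at 0 h, and dashed lines mark 2-fold. Saa1 and Saa2 are higher at both times, Tnfrsf12a and Srxn1 are higher at 0 h and lower at 24 h, and Mt1 and Mt2 lie near 0 at 24 h, where Mt2 is at the ceiling of both arrays.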

How the data were processed

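Liver RNA of 3 fasted male mice was pooled for each of 4 one-colour gene expression arrays, wildtype and YAP-KO at 0 h and at 24 h after acetaminophen. The authors deposited 1 table of 65956 probe sets whose values, from 2.24 to 19.93, were read here as log2 from their range. Nothing in the sources used here states the log base, background correction or normalization. The array's annotation gave 31258 probe sets 1 gene, 1492 several and 33206 none, and 1199 symbols were updated through RefSeq. The brightest probe set stood for each of 441 genes with several, and genes under the 40th percentile were left out. A value within 0.01 of an array's highest was treated as a ceiling, and 67 genes were there on all 4 arrays. The array medians ran from 4.32 to 4.47.

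Differences are YAP-KO minus wildtype, with no test, because each group is 1 array, and the number of arrays limits the precision. Gene lists were described by counts at 1.5-fold and by medians. The text names Yap1 and its neighbours, the 15 highest and 15 lowest genes (16 lowest with a tie), and list members at 1.5-fold or more or on which the list's background turns. Predicted, RIKEN, receptor and antigen receptor segment, microRNA, small nucleolar and ribosomal RNA genes were left out of the ranking, where receptor means olfactory and vomeronasal, and pseudogenes of a family were taken as a group. Other genes are said to be picked after their values were seen. Members and lists were chosen with earlier results of these data known. Promoters are RefSeq GRCm38.p6 windows of 250 bases for genes with 1 window. Other normalization, filters and probe set choices were tried. Python 3.11.15, pandas 2.3.3, numpy 2.4.6 and matplotlib 3.10.9 were used, and the scripts were tested on simulated data.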

Additional observations from a re-analysis of the deposited data

Results flagged for a closer look

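For 11 of the 15 highest and 16 lowest ranked genes at 0 h, the difference between YAP-KO and wildtype had opposite signs before and 24 h after acetaminophen, past 2-fold at both times. Each rests on 1 pooled array per genotype and time, and the change of sign was not tested.

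Of the 15 highest at 0 h, 6 were lower at 24 h. Tnfrsf12a stood at 3.35 at 0 h and -4.41 at 24 h, Srxn1 at 2.99 and -4.12, and Ppl at 3.29 and -2.88. Cdkn1a stood at 3.60 and -1.38, D10Wsu102e at 2.98 and -1.26, and Cxcl1 at 4.50 and -1.03. Of the 16 lowest at 0 h, 5 were higher at 24 h. The glycogen genes Ppp1r3b and Ppp1r3c stood at -1.51 and 2.70, and at -2.08 and 1.93. Inhbe stood at -1.43 and 1.87, Ppm1k at -1.53 and 1.80, and Kcnk5 at -1.43 and 1.12. Of all 186 genes 2-fold higher at 0 h, these 6 included, 52 were 2-fold lower at 24 h (28%) and 31 were 2-fold higher (16.7%). Of the 162 lower, these 5 included, 19 were 2-fold higher at 24 h (11.7%) and 20 were 2-fold lower (12.3%). Over all genes, 5.73% were 2-fold lower at 24 h and 3.24% higher. Genes with smaller differences at 0 h that changed sign included Tubb2a (2.65 and -3.48), Igfbp1 (2.61 and -1.88) and Myc (1.53 and -2.87). Tiparp (1.20 and -3.78), Hmox1 (1.01 and -2.72) and G6pc (-1.16 and 3.51) did so too.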

How the results depend on the processing

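No paired analysis was possible because each group has 1 array, and no array could be left out for the same reason. Under other filters, normalizations and probe set choices, the genes 2-fold higher numbered 163 to 207 and those lower 130 to 178; at 1.5-fold they numbered 513 to 848 and 658 to 1072. With protein-coding genes only, chosen after seeing the data, 46 genes were 2-fold lower, 418 were 1.5-fold higher and 313 were 1.5-fold lower. The 15 highest and 16 lowest genes, recomputed after quantile normalization, median centring and averaging of probe sets (93 values), kept their direction and stayed past 2-fold; other genes were not recomputed one by one. Of 180 list medians, 170 shifted by 0.1 or less. With the filter at the 60th percentile the medians were 0.00 for IL-1 signalling, 0.95 for IL-6 and STAT3, 0.23 for the TNF receptor family (from -0.01), 0.21 for NF-kappaB feedback and -0.33 for the clock. With no filter they were 0.39 for IL-6 and STAT3, 0.13 for immediate early genes and 0.13 for the cytoskeleton. After quantile normalization they were 0.96 for IL-6 and STAT3 and -0.17 for glycogen. A filter changes which members are counted; the cause of the other shifts was not tested. Genes at the ceiling have only bounds, and dim genes lie near the arrays' background.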
